A study of Mus musculus with 11 samples.

Results

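Cadherins and synaptic adhesion molecules are the surface proteins by which neurons and the cells around them hold on to, and recognise, one another. Genes were taken by symbol from 10 families: Cdh cadherins, non-clustered protocadherins, clustered protocadherins, the nectin-like Cadm genes, contactins, Cntnap genes, neurexins, neuroligins, teneurins and Lrrtm genes. The table held 89 of them among 19444 genes. There were 15 Cdh genes, 8 non-clustered and 38 clustered protocadherins, 4 Cadm genes, 6 contactins, 4 Cntnap genes, 3 neurexins, 3 neuroligins, 4 teneurins and 4 Lrrtm genes.

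Stellate ganglia, the sympathetic ganglia at the base of the neck, came from 6 male C57BL/6J mice aged 6 to 8 weeks with no other genotype given, and their cells were sequenced one by one. All animals carried both retrograde tracers, CTB-555 from interscapular brown fat (iBAT) and CTB-488 from the forelimb, placed 3 days earlier. A set is a pool of ganglia from 2 mice, there were 3 sets, which serve as the replicates (n = 3), and 11 plates of cells were sorted. Of 1039 sorted cells, 878 were in the expression table, with 333 cells in Set 1, 326 in Set 2 and 219 in Set 3. No cell could be tied to a tracer here, so all comparisons are between the 4 clusters that the authors deposited without names.

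Cluster 4 held 54 cells and was the cluster with Vip, at 54.1 ± 4.14 counts per 10000 (SD, n = 3 sets), against 0.215 ± 0.12 in cluster 1 and 0.232 ± 0.0887 in cluster 2. Cluster 3 was split at 30000 total counts per cell, in a gap between 18608 and 52105. Its 47 high-count cells had a median of 68061 counts and its 54 low-count cells a median of 2683.5. Cluster 1 held 388 cells with a median of 28396 counts and cluster 2 held 335 cells with a median of 40121. All 12 sympathetic neuron markers were detected in each of these 5 classes, with summed levels of 125 to 164 per 10000 in cluster 4, 180 to 212 in the high-count cells, 48.6 to 119 in the low-count cells, 183 to 214 in cluster 1 and 208 to 240 in cluster 2. Plates held 2050165 to 3373157 counts, and the 96 well barcodes were each used on more than 1 plate. cDNA was pooled within a plate, and Vip outside cluster 4 gives a gauge of what may carry over, so a low level of a gene that is high in another cluster is not read as expression. The clusters were made from these same expression values, so a p-value here describes how well a difference repeats over the sets.

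Classical cadherins bind calcium and pair with like cadherins on the next cell, while catenins tie them to actin. Neurexins sit mainly on the presynaptic side and bind neuroligins and Lrrtm proteins across the synaptic cleft, and teneurins bind latrophilins. Contactins are lipid-anchored immunoglobulin proteins of axons that work with Cntnap proteins, Cadm proteins are immunoglobulin molecules of synapses and axons, and protocadherins add a combinatorial layer of recognition. In a sympathetic ganglion such proteins lie at the synapses that spinal preganglionic axons make on the neurons, on the axons and at contacts with satellite glia.

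Only 8 of the 89 genes reached 1 count per 10000 in cluster 1, 2, 4 or the high-count cells, among them Cadm1, Cadm3, Cntn1, Nrxn3, Pcdh7, Tenm2 and Tenm4. A further 33 genes lay between 0.05 and 1, and 48 stayed under 0.05 in all 4 of these classes. Counts come from 3′ ends and are not scaled to length, so levels are compared between cells, not between genes. For the comparisons of clusters 4, 1 and 2, a gene needed a mean of 0.05 counts per 10000, which 33 genes passed and 56 did not. Pcdhb20, at 0.0518, lay just inside and Pcdh19, at 0.0435, just outside. A gene present in a single small cluster can miss this filter, so the 33 genes are those abundant enough to test and not a sample of the families. A gene that passed through the 1 class where it is high was tested only because it is high there, so its call is no support. Called genes of this kind are named beside their results.

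**Figure D1:**
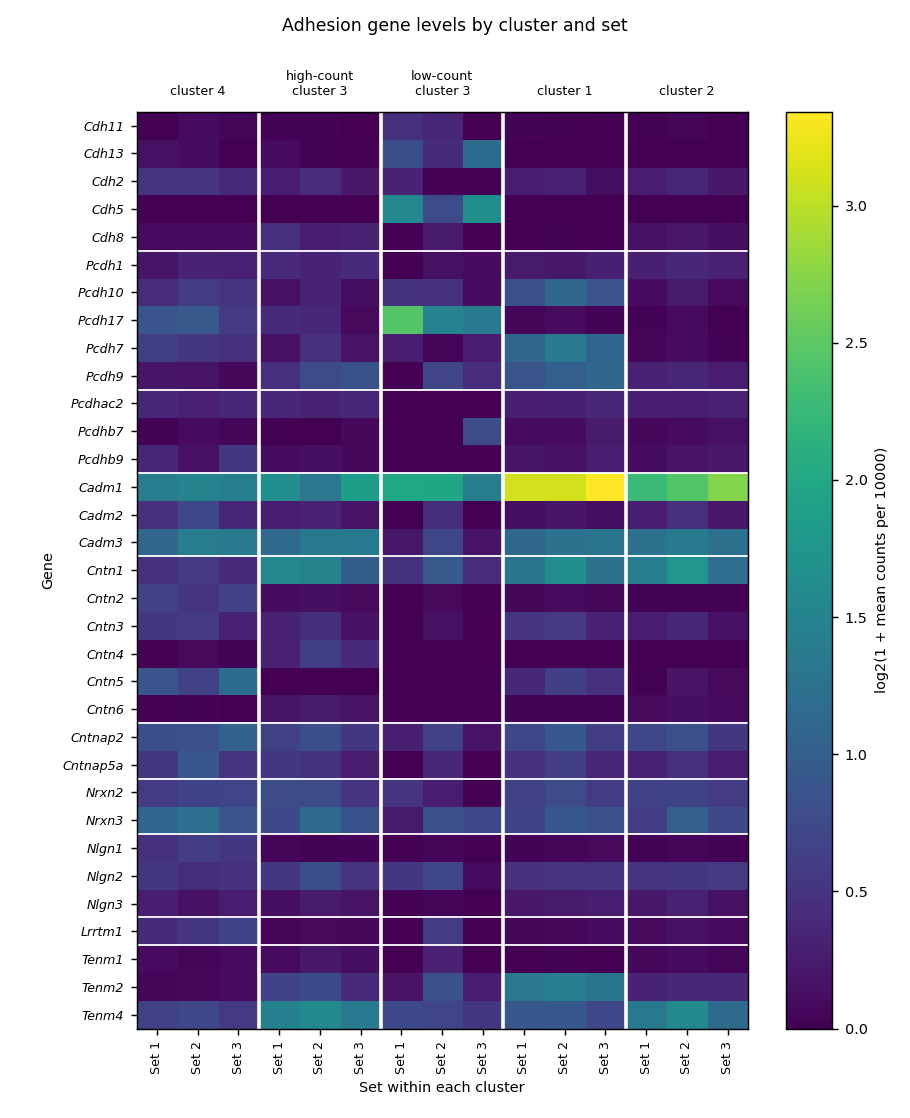
Levels of 33 genes of the 89 in each set of each cluster, as log2(1 + mean counts per 10000), with genes grouped by family and columns running from cluster 4 to cluster 2. The genes shown were chosen by level, with Cdh5, Cdh13 and Cdh11 added, and are not the same list as the 33 genes tested between clusters. Cadm1 is brightest in cluster 1, Tenm2, Pcdh7, Pcdh9 and Pcdh10 form a block there, and Nlgn1, Cntn2 and Cntn5 stand out in cluster 4. Pcdh17 is high in cluster 4 and higher in the low-count cells, where Cdh5 also appears.

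Promoters are shown for 3 of the genes that set clusters apart: Cntn2 and Pcdh17, which were high in cluster 4, and Pcdh7, which was high in cluster 1. The sequences are from RefSeq on GRCm38.p6, from 250 bases before to 50 after the annotated start, and such a promoter was at hand for 33 of the 89 genes. They lie at chr1:132542891-132543190 on the minus strand for Cntn2, chr14:84443313-84443612 on the plus strand for Pcdh17 and chr5:57717831-57718130 on the plus strand for Pcdh7. Capitals mark matches to CANNTG, the E-box letters read by basic helix-loop-helix factors such as Hand2, searched on both strands. Cntn2 and Pcdh7 had 1 match each and Pcdh17 had 0, and 72.3% of 32851 mouse promoters of the same length hold at least 1. A match is not a binding site, and reads from 3′ ends do not show which start was used.
Cntn2: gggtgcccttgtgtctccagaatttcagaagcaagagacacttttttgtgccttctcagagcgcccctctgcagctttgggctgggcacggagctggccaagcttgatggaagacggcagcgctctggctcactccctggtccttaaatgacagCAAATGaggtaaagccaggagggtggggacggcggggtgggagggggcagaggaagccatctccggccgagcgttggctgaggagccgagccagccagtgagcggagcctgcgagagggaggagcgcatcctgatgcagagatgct
Pcdh17: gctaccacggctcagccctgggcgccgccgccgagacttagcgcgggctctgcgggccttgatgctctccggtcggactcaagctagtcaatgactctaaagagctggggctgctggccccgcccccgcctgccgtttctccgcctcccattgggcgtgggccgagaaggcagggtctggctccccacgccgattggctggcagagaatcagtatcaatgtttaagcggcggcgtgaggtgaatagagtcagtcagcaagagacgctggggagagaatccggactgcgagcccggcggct
Pcdh7: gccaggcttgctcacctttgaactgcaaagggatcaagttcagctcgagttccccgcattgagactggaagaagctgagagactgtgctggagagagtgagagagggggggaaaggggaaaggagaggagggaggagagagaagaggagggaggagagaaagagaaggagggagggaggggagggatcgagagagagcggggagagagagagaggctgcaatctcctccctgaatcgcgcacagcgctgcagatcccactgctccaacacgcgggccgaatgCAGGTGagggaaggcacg

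Cluster 4 differed from clusters 1 and 2 in many adhesion genes, in both directions. Of the 33 genes tested, 11 rose in cluster 4 and 5 fell, where limma called 24.7% of all 10564 tested genes, 12.4% higher and 12.3% lower. Of the 11, Pcdh17, Cntn2 and Nlgn1 were under 0.05 in clusters 1 and 2 and passed the filter through cluster 4 alone, where they are high, so they could be tested only because they differ. The genes that rose also included Cntn5 and Lrrtm1, and those that fell were Cadm1, Cntn1, Tenm2, Tenm4 and Pcdh9. By family, 2 of 4 tested contactins, 1 of 3 neuroligins and the 1 tested Lrrtm gene rose, and 2 of 3 teneurins fell. The neuroligin is Nlgn1 and 1 of the 2 contactins is Cntn2, both tested only because they are high in cluster 4. With so few genes in each, these counts give no result about the families. Differences are between means of log2(1 + counts per 10000) taken over cells, given with the standard error, and on this scale a change in a gene with a low level is understated. The median difference was 0.01 for the 33 genes and -0.00091 for all tested genes.

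Among the ligands and receptors of the synapse, Nlgn1, a postsynaptic partner of neurexins best known from excitatory synapses, had 0.391, 0.523 and 0.449 counts per 10000 in cluster 4 of Sets 1, 2 and 3. It had 0.0204, 0.0426 and 0.0568 in cluster 1 and 0.0116, 0.0278 and 0.0121 in cluster 2. Every set of cluster 4 lay above every set of the others, at 11.4 times the mean level of cluster 1 and 26.4 times that of cluster 2, and the log2 difference was 0.45 ± 0.03 (limma adjusted p = 5.24e-09). Lrrtm1, a postsynaptic leucine-rich repeat ligand of neurexins, had 0.325, 0.449 and 0.587 in cluster 4, against 0.0442, 0.0541 and 0.0815 in cluster 1 and 0.0606, 0.109 and 0.0671 in cluster 2. These groups did not overlap either, and the log2 difference was 0.39 ± 0.03 (limma adjusted p = 6.53e-07). Nlgn2, the neuroligin of inhibitory and cholinergic synapses, was at 0.398 ± 0.0403 in cluster 4, against 0.411 ± 0.0357 in cluster 1 and 0.451 ± 0.0316 in cluster 2. Its log2 difference was -0.03 ± 0.04 (adjusted p = 0.609), and that of Nlgn3 was -0.005 ± 0.03 (adjusted p = 0.937).

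Nrxn3 and Nrxn2 are neurexins, the presynaptic partners of these proteins. Nrxn3 had a log2 difference of 0.26 ± 0.06 (limma adjusted p = 0.00671), lost without Set 1, and its difference was 0.47 in Set 1, 0.23 in Set 2 and 0.08 in Set 3. Nrxn2 was at 0.58 ± 0.0622 in cluster 4, against 0.592 ± 0.113 in cluster 1 and 0.562 ± 0.0518 in cluster 2, and its log2 difference was 0.01 ± 0.05 (adjusted p = 0.874).

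The contactins moved in opposite directions. Cntn1, which on axons partners Cntnap1 at the paranode, had 0.391, 0.487 and 0.336 counts per 10000 in cluster 4, against 1.43, 2.11 and 1.37 in cluster 1 and 1.68, 2.34 and 1.31 in cluster 2. Cluster 4 was low in every set, at 0.247 times the mean of cluster 1 and 0.228 times that of cluster 2, with a log2 difference of -0.92 ± 0.06 (limma adjusted p = 2.62e-08). Cntn2, the contactin of the juxtaparanode, had 0.571, 0.428 and 0.577 in cluster 4, against 0.0363, 0.0668 and 0.0469 in cluster 1 and 0.0275, 0.0264 and 0.0151 in cluster 2. It was 10.5 times the mean of cluster 1 and 22.8 times that of cluster 2, with no overlap and a log2 difference of 0.50 ± 0.03 (limma adjusted p = 1.22e-08). Cntn5, a contactin of sensory and other axons, had 0.846, 0.573 and 1.27 in cluster 4, against 0.307, 0.546 and 0.368 in cluster 1 and 0.0156, 0.125 and 0.0567 in cluster 2. In Set 2 cluster 4 came close to cluster 1, at 1.05 times its level, and the log2 difference was 0.53 ± 0.08 (limma adjusted p = 8.07e-04). Cntnap2, the partner of Cntn2 at the juxtaparanode, was at 0.86 ± 0.175 in cluster 4, against 0.691 ± 0.188 in cluster 1 and 0.623 ± 0.163 in cluster 2, and its difference of 0.16 ± 0.07 missed the threshold (adjusted p = 0.122). Cntnap5a rose, by 0.23 ± 0.04 (limma adjusted p = 4.75e-04). Cntnap1, at a mean of 0.0233 counts per 10000 over clusters 4, 1 and 2, was below the filter and not tested.

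Cadm1, an immunoglobulin molecule that joins cells at synapses and along axons, had the largest log2 difference of the genes that fell, although the ratio to clusters 1 and 2 was lower for Tenm2. It had 1.65, 1.81 and 1.71 counts per 10000 in cluster 4, against 7.64, 7.66 and 9.14 in cluster 1 and 3.85, 4.47 and 5.63 in cluster 2. No set of cluster 4 came near the others, and its level was 0.212 times that of cluster 1 and 0.371 times that of cluster 2 (log2 difference -1.37 ± 0.06, limma adjusted p = 5.49e-10). Cadm2, a relative that binds Cadm1, went the other way with 0.39, 0.65 and 0.31 in cluster 4, against 0.0869, 0.153 and 0.0879 in cluster 1 and 0.214, 0.38 and 0.174 in cluster 2. Cluster 4 was above cluster 2 within each set although the sets overlapped, and the log2 difference was 0.27 ± 0.04 (limma adjusted p = 9.24e-05). Cadm3 averaged 1.48 ± 0.28, 1.34 ± 0.145 and 1.46 ± 0.0982 in clusters 4, 1 and 2, a difference of 0.06 ± 0.05 (adjusted p = 0.501). Cadm4 was at or under 0.0404 on average in all of these clusters and was not tested.

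Of the teneurins, large receptors for latrophilins, Tenm2 had 0.0279, 0.0544 and 0.0709 counts per 10000 in cluster 4, against 1.54, 1.69 and 1.44 in cluster 1 and 0.249, 0.301 and 0.3 in cluster 2. The 3 clusters were fully apart, with cluster 4 at 0.0328 times the cluster 1 level and 0.18 times the cluster 2 level (log2 difference -0.71 ± 0.04, limma adjusted p = 7.63e-09). Tenm4 had 0.58, 0.652 and 0.488 in cluster 4, against 0.877, 0.885 and 0.658 in cluster 1 and 1.56, 2.01 and 1.23 in cluster 2. Cluster 4 was the lowest in each set, and the log2 difference was -0.46 ± 0.05 (limma adjusted p = 1.04e-05). Tenm3 was at 0.0422 ± 0.0366 in cluster 4, against 0.0884 ± 0.0077 in cluster 1 and 0.0343 ± 0.0121 in cluster 2, with a difference of -0.02 ± 0.02 (adjusted p = 0.403).

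Non-clustered protocadherins also divided. Pcdh17 had 0.84, 0.917 and 0.474 counts per 10000 in cluster 4, against 0.0336, 0.0736 and 0.0195 in cluster 1 and 0.0268, 0.0663 and 0.0068 in cluster 2. Its log2 difference was 0.70 ± 0.05 (limma adjusted p = 5.17e-08) and no sets overlapped. Pcdh9 had 0.139, 0.127 and 0.055 in cluster 4, against 0.826, 1 and 1.15 in cluster 1 and 0.241, 0.284 and 0.191 in cluster 2, and its log2 difference was -0.43 ± 0.04 (limma adjusted p = 2.39e-06). Pcdh7 and Pcdh10 sat between the other clusters, which a comparison with their mean cannot show. Pcdh10 was at 0.417 ± 0.0812 in cluster 4, against 0.931 ± 0.23 in cluster 1 and 0.109 ± 0.06 in cluster 2, and Pcdh7 averaged 0.456 ± 0.0763, 1.29 ± 0.28 and 0.0498 ± 0.0297. For both, the sets of cluster 4 lay below all sets of cluster 1 and above all sets of cluster 2, and the differences from the mean of clusters 1 and 2 were -0.01 ± 0.04 for Pcdh10 (adjusted p = 0.875) and -0.10 ± 0.05 for Pcdh7 (adjusted p = 0.229).

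Of 15 Cdh genes only Cdh2 and Cdh8 were abundant enough to test here. Cdh2, N-cadherin, the main classical cadherin of neurons and also made by glia, had 0.412, 0.411 and 0.33 counts per 10000 in cluster 4, against 0.201, 0.233 and 0.0933 in cluster 1 and 0.191, 0.272 and 0.176 in cluster 2. Cluster 4 was above all sets of the others, with a log2 difference of 0.20 ± 0.03 (limma adjusted p = 2.25e-04), and the call was lost when cells were thinned to 15000 counts. Cdh10 was counted in 10 of 54 cells of cluster 4, in 2 of 388 of cluster 1 and in 2 of 335 of cluster 2, and was below the filter. The mean level of Cdh19, a cadherin of the Schwann cell lineage, was 0.00395 counts per 10000 in cluster 4, against 0.00687 in cluster 1 and 0.00842 in cluster 2. The 9 glial markers were all detected in clusters 4, 1 and 2, with summed levels of 11.9 to 30.8 in cluster 4, 6.05 to 8.16 in cluster 1 and 6.87 to 16.9 in cluster 2. Without the 10% of cells richest in glial marker counts, 11 genes were still higher and 5 lower, and 15 of the 16 calls were shared.

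The calls for Cntnap5a, Nrxn3 and Pcdhb9 were lost both without the set as a block and with cells thinned to 15000 counts. After thinning 6 genes were higher and 6 lower, since Pcdh7 was then called lower. With median-of-ratios size factors or voom weights on summed counts, Pcdh7, Pcdh10 and Cdh8 gained calls. Cluster 4 had Pcdh7 at 0.352 times the cluster 1 level and 9.16 times the cluster 2 level. The sign of its difference from their mean can therefore depend on the scale, and the call after thinning does not settle it.

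**Figure D2:**
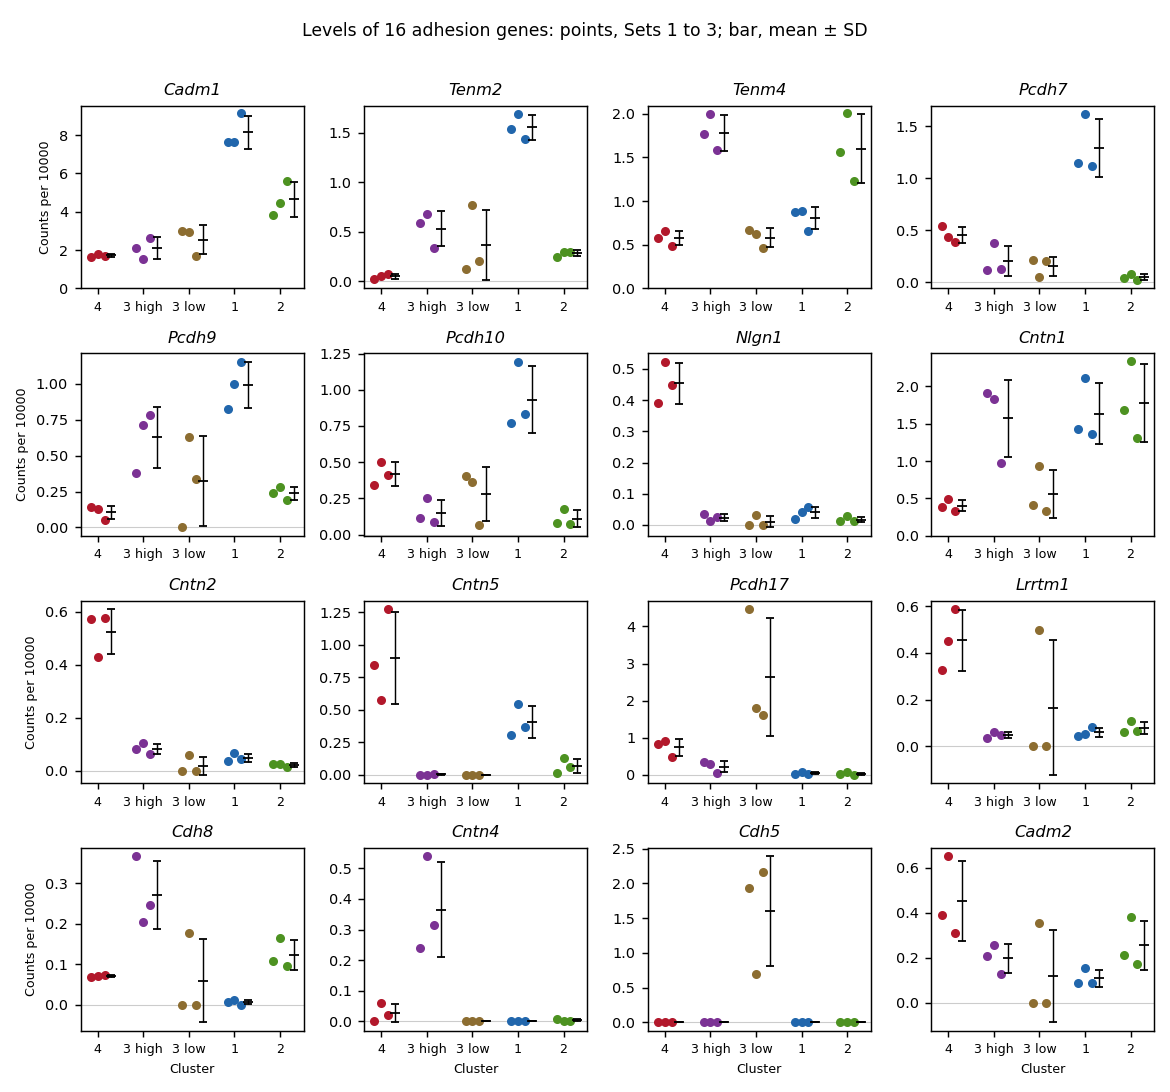
Levels of 16 genes in counts per 10000, with 1 point for each of Sets 1, 2 and 3 in each class and a bar for the mean ± SD (n = 3). Cadm1, Tenm2 and Cntn1 sit lowest or near lowest in cluster 4, Nlgn1, Cntn2 and Lrrtm1 are high there, and Pcdh17 and Cdh5 are highest in the low-count cells, where the sets scatter.

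Clusters 1 and 2 are the large neuron clusters, and they too were told apart by adhesion genes. In cluster 1, 6 of the 33 tested genes were higher and 3 lower than in cluster 2, where limma called 8.86% of all tested genes, 3.59% higher and 5.27% lower. The higher genes were Tenm2, Pcdh7, Pcdh10, Pcdh9, Cadm1 and Cntn3, and the lower ones Tenm4, Cdh8 and Cadm2. No neuroligin, Lrrtm or Cntnap gene passed, and the median difference was 0.02 for the 33 genes and -0.01 for all.

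Of the 5 tested non-clustered protocadherins, 3 were higher in cluster 1. Pcdh7 had 1.15, 1.62 and 1.12 counts per 10000 in cluster 1, against 0.0419, 0.0826 and 0.0249 in cluster 2. It was 26.0 times higher on the means, 19.6 to 45.0 times within the sets, with a log2 difference of 1.05 ± 0.06 (limma adjusted p = 3.29e-08). Pcdh10 had 0.767, 1.19 and 0.832 in cluster 1, against 0.0765, 0.178 and 0.0718 in cluster 2, a log2 difference of 0.73 ± 0.05 (limma adjusted p = 9.88e-08). Pcdh9 had a log2 difference of 0.57 ± 0.05 (limma adjusted p = 1.56e-06) and was 4.16 times higher in cluster 1 on the mean levels. The clusters did not overlap for any of these 3 genes, and the share of all tested genes without overlap was not counted. Pcdh17 and Pcdh1, the other 2 tested non-clustered protocadherins, had differences of 0.0086 ± 0.06 (adjusted p = 0.975) and -0.08 ± 0.04 (adjusted p = 0.282).

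The teneurins Tenm2 and Tenm4 were opposed. Tenm2, with the set values above, was 5.49 times higher in cluster 1 (log2 difference 0.92 ± 0.05, limma adjusted p = 7.45e-09), and after thinning to 15000 counts it was counted in 84.6% ± 4.03 of cluster 1 cells and 32.6% ± 1.77 of cluster 2 cells. Tenm4 was 0.504 times its cluster 2 level in cluster 1 (log2 difference -0.55 ± 0.06, limma adjusted p = 2.09e-05). Tenm3 had a difference of 0.06 ± 0.02 that missed the threshold (adjusted p = 0.0771), and it passed the filter through cluster 1 alone. Tenm1 was below the filter, at 0.0096 ± 0.0088 in cluster 1 and 0.0549 ± 0.0241 in cluster 2.

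Cadm1 was 1.75 times higher in cluster 1 (log2 difference 0.76 ± 0.07, limma adjusted p = 4.48e-06), and its sets did not overlap. Cdh8, a type II classical cadherin, had 0.0078, 0.0106 and 0 counts per 10000 in cluster 1, against 0.108, 0.166 and 0.0948 in cluster 2. The log2 difference was -0.14 ± 0.02 (limma adjusted p = 4.68e-04), and after thinning it was counted in 3 of 367 cells of cluster 1 and 55 of 323 of cluster 2. Cntn3 (0.16 ± 0.04, limma adjusted p = 0.0121) and Cadm2 (-0.17 ± 0.04, limma adjusted p = 0.0251) lost their calls when any single set was left out. Cntn5 averaged 0.407 ± 0.124 in cluster 1 and 0.0659 ± 0.0554 in cluster 2, higher in each set, with a difference of 0.30 ± 0.09 that missed the threshold (adjusted p = 0.0804). It was called without Set 2, with a pseudocount of 0.1, with median-of-ratios size factors and with voom weights, but not in the other settings. Lrrtm4, below the filter, was counted in 79 of 388 cells of cluster 1, 1 of 335 of cluster 2 and 6 of 54 of cluster 4, while Lrrtm2 and Lrrtm3 stayed under 0.07 on average in these clusters.

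**Figure D3:**
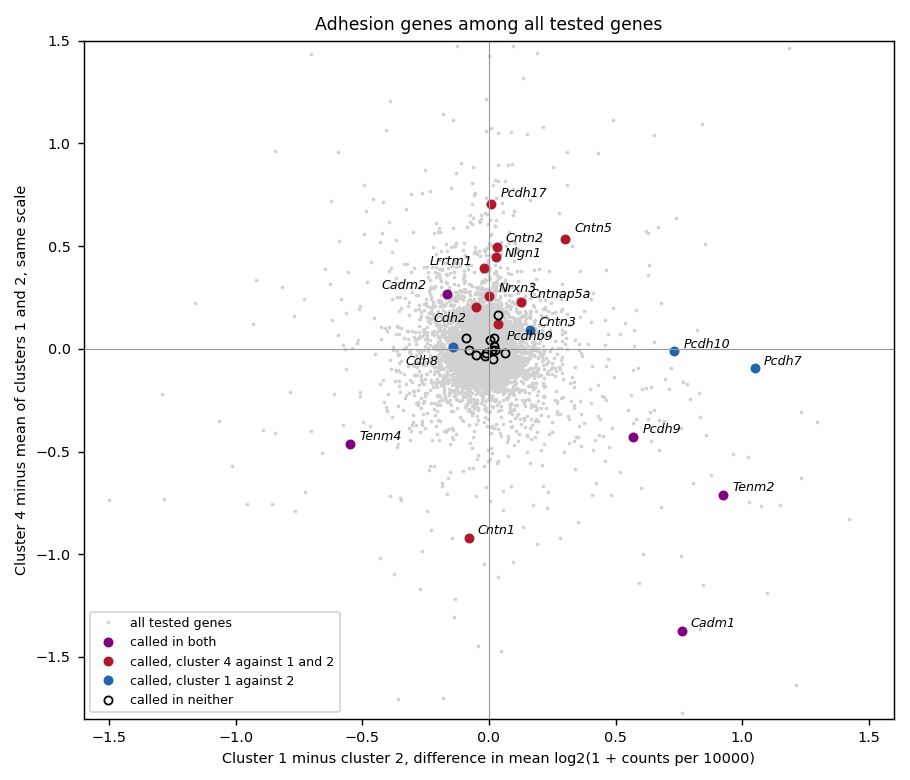
Differences of 32 adhesion genes between cluster 1 and cluster 2 (horizontal) and between cluster 4 and the mean of clusters 1 and 2 (vertical), both in mean log2(1 + counts per 10000), over 10564 tested genes in grey, of which 22 lie beyond the axes. Pcdh7, Tenm2, Cadm1 and Pcdh10 lie far to the right, Cadm1 and Cntn1 far down and Pcdh17 at the top. The axes share the cells of clusters 1 and 2, so no relation between them is read.

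**Figure D4:**
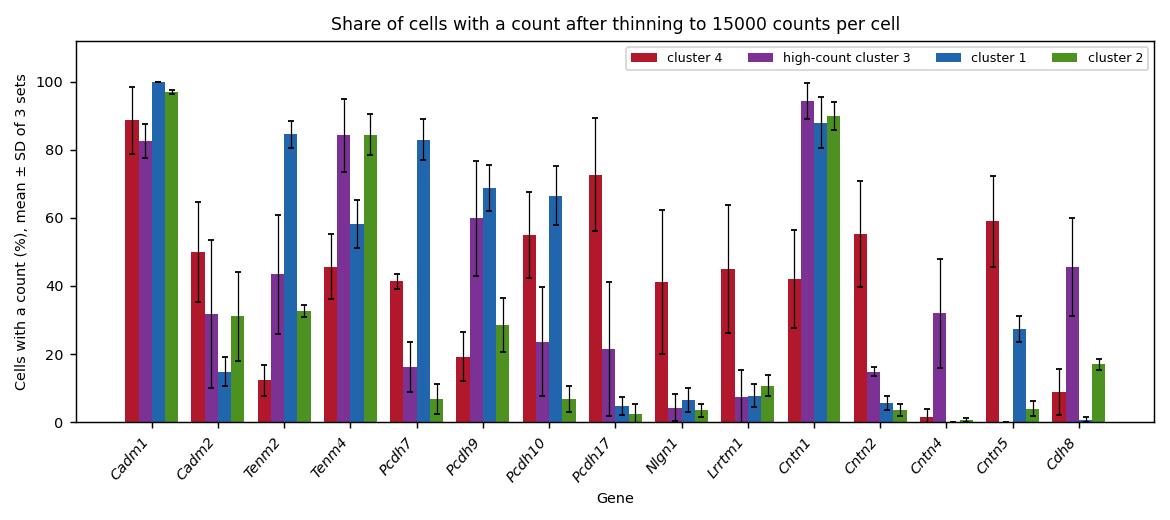
Share of cells with at least 1 count after each cell was thinned to 15000 counts, as the mean over 3 sets with SD bars, for 15 genes in cluster 4, the high-count cells of cluster 3, cluster 1 and cluster 2. Pcdh7 was counted in 83.0% of cluster 1 cells and 6.8% of cluster 2 cells, Pcdh17 in 72.7% of cluster 4 cells, and Cntn4 in 32.0% of the high-count cells.

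Shares of cells were compared after thinning, with every cell at one depth. Pcdh17 was counted in 72.7% ± 16.6 of cluster 4 cells, 4.86% ± 2.62 of cluster 1 cells and 2.38% ± 2.94 of cluster 2 cells (SD, n = 3 sets). Nlgn1 was counted in 41.2% ± 21.2, 6.56% ± 3.43 and 3.44% ± 1.92 of the cells of clusters 4, 1 and 2, and Cntn2 in 55.4% ± 15.5, 5.67% ± 1.95 and 3.69% ± 1.72. Without thinning these shares were 90.7%, 7.99% and 9.55% for Pcdh17. The 15000-count limit left out 1 cell of cluster 4, 0 high-count cells, 21 cells of cluster 1 and 12 of cluster 2. Cadm1 was counted in all 367 thinned cells of cluster 1 and in 46 of 53 of cluster 4.

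The high-count cells of cluster 3 were set against cluster 2 after thinning every cell to 15000 counts. Cadm1 fell and Cntn4, Pcdh9 and Cdh8 rose, which is 1 lower and 3 higher of 32 tested genes, where limma called 2.31% of all 10506 tested genes (1.16% higher and 1.15% lower). Cadm1 had 2.13, 1.51 and 2.64 counts per 10000 in the high-count cells before thinning, against 3.85, 4.47 and 5.63 in cluster 2. The groups did not overlap, and the thinned log2 difference was -1.08 ± 0.10 (limma adjusted p = 2.22e-07).

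Cntn4, a contactin of axons, set these cells apart from all other clusters. It had 0.241, 0.539 and 0.316 counts per 10000 in the high-count cells, against 0.0067, 0.0013 and 0.0027 in cluster 2, and averaged 0.0272 in cluster 4 and 0.0005 in cluster 1. The thinned log2 difference from cluster 2 was 0.32 ± 0.05 (limma adjusted p = 2.18e-04), and it was not called without Set 3 (adjusted p = 0.0755). Cntn4 passed the filter through the high-count cells alone and was tested only because it is high there. Cdh8 had 0.366, 0.203 and 0.246 in the high-count cells, against 0.108, 0.166 and 0.0948 in cluster 2, with no overlap and a thinned log2 difference of 0.27 ± 0.05 (limma adjusted p = 0.00534). Pcdh9 had 0.381, 0.714 and 0.786, against 0.241, 0.284 and 0.191 in cluster 2, a thinned log2 difference of 0.41 ± 0.08 (limma adjusted p = 0.00515). Cdh8 was not called without Set 1 or Set 2, and Pcdh9 not without Set 2 or Set 3. Cntn5, in contrast, was counted in 0 of the 47 high-count cells after thinning and averaged 0.0021, and its thinned difference from cluster 2 was -0.04 ± 0.08 (adjusted p = 0.904).

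Some genes stayed close to cluster 2 in the high-count cells or moved without passing. Tenm4 had 1.77, 1.99 and 1.59 counts per 10000 there, against 1.56, 2.01 and 1.23 in cluster 2, overlapping, with a thinned difference of 0.09 ± 0.10 (adjusted p = 0.741). Tenm1, another teneurin, averaged 0.11 ± 0.049, against 0.0549 ± 0.0241 in cluster 2, with a thinned difference of 0.11 ± 0.03 (adjusted p = 0.0574). Pcdh17 averaged 0.227 ± 0.149, against 0.0333 ± 0.0303 in cluster 2, but 42.9% of its counts in the high-count cells came from 2 cells (thinned difference 0.21 ± 0.07, adjusted p = 0.131). With cells as deposited, not thinned, 6 genes were called higher, with Cntn6, Pcdh17 and Tenm2 added.

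The low-count cells of cluster 3 carried Cdh5 and Cdh13, cadherins found on endothelium. Compared with clusters 1 and 2 at 1500 counts per cell, Cdh5 and Cdh13 rose and Cadm1 and Cadm3 fell among 31 tested genes, that is 2 higher and 2 lower, where limma called 4.66% of all 10820 tested genes (2.44% higher and 2.22% lower). Cdh5, VE-cadherin of endothelial junctions, had 1.94, 0.695 and 2.16 counts per 10000 in the low-count cells and 0 in every set of clusters 1, 2 and 4. It was counted in 15 of 54 low-count cells, with 23 counts in all, and in 0 of 777 cells of clusters 1, 2 and 4, which allows a share of up to 0.386% of cells with a count. Pooled over cells its level was 1.23 counts per 10000. That is 1104 times the level that 3 counts over clusters 1, 2 and 4 would give. Error in the 23 counts and the spread over sets are not part of this ratio, so it is not a lower bound. The thinned log2 difference from clusters 1 and 2 was 0.63 ± 0.12 (limma adjusted p = 0.0261). Cdh5 and Cdh13 passed the filter through the low-count cells alone, so these tests were made only because the genes are high there.

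Cdh13, the lipid-anchored T-cadherin found on endothelium and muscle, had 0.747, 0.326 and 1.26 counts per 10000 in the low-count cells, against 0, 0.0019 and 0 in cluster 1 and 0, 0 and 0.0028 in cluster 2. It rested on 10 counts in 7 cells (thinned log2 difference 0.28 ± 0.06, limma adjusted p = 0.0410). Pcdh17 had 4.47, 1.8 and 1.62 there, against at most 0.0736 in any set of cluster 1 or 2. No sets overlapped, but they were uneven and the thinned difference of 1.16 ± 0.34 missed the threshold (adjusted p = 0.0869). Cdh11, a cadherin of mesenchymal cells, had 5 counts in 4 cells, with a difference of 0.06 ± 0.04 (adjusted p = 0.334). Pcdh17 and Cdh11 also passed the filter through the low-count cells alone.

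Cadm1 had 2.99, 2.94 and 1.68 counts per 10000 in the low-count cells, below every set of clusters 1 and 2, with a thinned log2 difference of -0.98 ± 0.22 (limma adjusted p = 0.0412). Cadm3 had 0.165, 0.658 and 0.134, against 1.18, 1.37 and 1.46 in cluster 1 and 1.39, 1.57 and 1.40 in cluster 2, a thinned log2 difference of -0.47 ± 0.11 (limma adjusted p = 0.0435). No call remained without Set 1 or without Set 3, and only Cdh5 was called without Set 2. Set 3 held 8 of these cells, Set 1 held 15 and Set 2 held 31.

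All 9 endothelial markers were detected in the low-count cells, with summed levels of 10.4 to 38.9 counts per 10000, against 0.986 to 1.38 in cluster 1 and 1.03 to 1.40 in cluster 2. Fibroblast markers summed to 0.327 to 44.1, mural markers to 2.40 to 26.6 and glial markers to 12.0 to 80.6, and neuron markers were also present, so these wells do not hold 1 kind of RNA. Among the 33 cells with 2 or more endothelial marker counts, Pcdh17 was counted in 22, Cdh5 in 12 and Cdh13 in 7. Among the 21 cells with 0 or 1 such count the numbers were 0, 3 and 0, and 0 of 21 cells allows a share of up to 14.3%. Cadm1 was counted in 17 of the 33 and 10 of the 21. This division was made after the values were seen and is given without a test.

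Within cluster 4, Cntn5 was counted mainly in cells without Sst counts. Sst, the gene of the neuropeptide somatostatin, was counted in 18 of the 54 cells. Cntn5 was counted in 1 of those 18 cells and in 31 of the 36 cells without Sst counts. Its mean level was 0.112, 0 and 0 counts per 10000 in the cells with Sst of Sets 1, 2 and 3, against 1.09, 0.983 and 1.76 in the cells without. All 3 sets ran the same way, and median totals were 30410.5 counts in cells with Sst and 36614.5 in cells without. Other genes high in cluster 4 were counted in both kinds of cell: Pcdh17 in 17 of 18 with Sst and 32 of 36 without, Cntn2 in 14 and 27, Nlgn1 in 11 and 28, and Lrrtm1 in 11 and 26. Levels of Nlgn1 were lower in the cells with Sst in each set, at 0.112, 0.302 and 0.288, against 0.485, 0.682 and 0.511 in the cells without. Levels of Lrrtm1 were 0.112, 0.226 and 0.578 with Sst, against 0.396, 0.608 and 0.59 without. Pcdh10 ran the other way in each set, at 0.501, 0.764 and 0.498 with Sst, against 0.285, 0.313 and 0.379 without. The 18 cells with Sst were spread over 3 sets, so each of these set values rests on few cells. The division by Sst was chosen with the values known and was not tested.

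**Figure D5:**
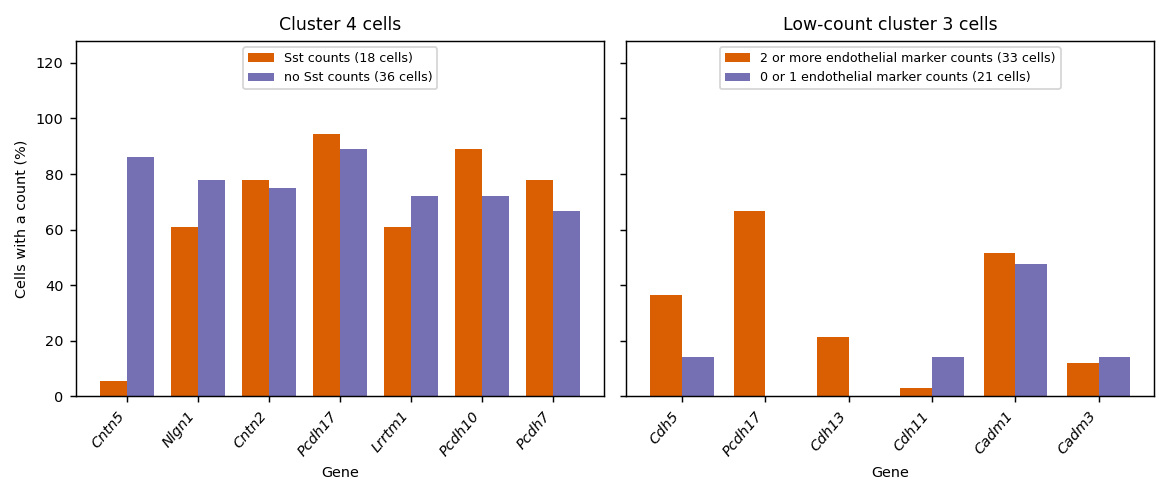
Share of cells with at least 1 count, cells as deposited, for 7 genes in cluster 4 cells with and without Sst counts (left) and 6 genes in low-count cluster 3 cells with 2 or more, or 0 or 1, endothelial marker counts (right). Cntn5 is nearly confined to the 36 cells without Sst, at 86.1% against 5.56% of the 18 with Sst, and Pcdh17 and Cdh13 were counted in the 33 endothelial-marker cells and in 0 of the other 21.

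The clustered protocadherins, 38 genes on chromosome 18 whose combinations give single neurons an identity in the mammalian brain, were counted sparsely in every cluster. At 15000 counts a cell had a median of 1 to 2 of the 38 genes with a count in each set of clusters 4, 1, 2 and the high-count cells, and 11.1% to 30.8% of cells had none. Of the 38 genes 7 were abundant enough to test between clusters 4, 1 and 2. Pcdhb9 alone passed, higher in cluster 4 by 0.12 ± 0.04 (limma adjusted p = 0.0308), with 0.277, 0.118 and 0.456 counts per 10000 there, against 0.151, 0.117 and 0.212 in cluster 1 and 0.081, 0.129 and 0.170 in cluster 2. The sets overlapped, and the call was lost without Set 1 and without Set 3. Of these genes, 0 of 7 passed between cluster 1 and cluster 2, 0 of 4 between the high-count cells and cluster 2, and 0 of 5 in the low-count cells. With 24.7%, 8.86%, 2.31% and 4.66% of all genes called in these 4 comparisons, so few tested genes give no result about the family.

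How well these genes can be told apart by 3′ ends differs by cluster of genes. All 10 Pcdha and all 7 Pcdhg genes share their last exon with another gene of their cluster in GENCODE M21, while 2 of 21 Pcdhb genes overlap a neighbour there. Values of single Pcdha and Pcdhg genes are therefore uncertain. Elsewhere, exons of Nlgn1, Pcdh7, Pcdh10, Tenm1, Tenm3, Tenm4, Cntn5, Cdh8, Cadm2, Lrrtm2, Lrrtm4, Nrxn2, Nrxn3 and Pcdh19 overlap an annotated gene on the other strand. So do exons of Cntnap1 and Pcdh8. Exons of Cadm3 and Nlgn3 overlap a gene on the same strand, Ackr1 and Gm21986, so their values are uncertain too. The sources used here do not say whether counting used strand, so reads of such pairs cannot be told apart.

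Sets differed for a few abundant genes. Tenm4 in cluster 2 had 1.56, 2.01 and 1.23 counts per 10000 in Sets 1, 2 and 3, with plates from 1.42 to 1.77, from 1.82 to 2.09 and from 1.02 to 1.40, so plates of different sets did not overlap. Cntn1 was highest in Set 2 in cluster 1 and cluster 2, at 2.11 and 2.34, and its plates there ran from 1.96 to 2.27 and from 2.25 to 2.41. In the high-count cells Cntn1 was low in Set 3, at 0.972 against 1.92 and 1.83. Cadm1 in the high-count cells ranged from 1.51 in Set 2 to 2.64 in Set 3, and Nrxn3 in cluster 4 from 0.825 in Set 3 to 1.33 in Set 2. In cluster 2, Set 2 also had the most counts per cell, with a median of 46238 against 39116 in Set 1 and 35748.5 in Set 3, and the highest glial marker sum, 16.9 against 7.18 and 6.87. The part of depth and glial RNA in these set differences was not tested.

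Of 73 genes of binding partners, cytoskeletal linkers and other adhesion families, 51 were tested between clusters 4, 1 and 2. In cluster 4, 7 were higher and 15 lower than in clusters 1 and 2, against 12.4% higher and 12.3% lower among all tested genes. Ctnna1, among the higher ones, passed the filter through cluster 4 alone, and Nxph4, among the lower ones, through cluster 1 alone. The higher genes with the smallest p were Slitrk5, a receptor of postsynaptic membranes (0.21 ± 0.02, limma adjusted p = 6.54e-06), Adgrl2, the latrophilin 2 receptor, which passed the filter through cluster 4 alone (0.17 ± 0.02, 2.68e-05), and Epb41l3, a linker to the cytoskeleton (0.42 ± 0.05, 3.71e-05). Epb41l3 averaged 2.57 ± 0.356 counts per 10000 in cluster 4, 1.37 ± 0.237 in cluster 1 and 2.17 ± 0.539 in cluster 2, so it overlapped cluster 2. The lower ones were Ntng1, a netrin-G of axons (-0.79 ± 0.05, 3.44e-08), Clstn1, calsyntenin 1 (-0.58 ± 0.04, 1.61e-07), and Adgrl3, latrophilin 3, a teneurin receptor (-0.49 ± 0.05, 3.23e-06). Adgrl3 was at 0.178 ± 0.12 in cluster 4, against 0.849 ± 0.189 in cluster 1 and 0.578 ± 0.186 in cluster 2.

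Between cluster 1 and cluster 2, 7 of the 51 partner genes were higher and 5 lower, against 8.86% called among all tested genes. Flrt2, among the lower ones, passed the filter through cluster 2 alone. Nxph4, a neurexophilin that binds neurexin, averaged 0.237 ± 0.0612 in cluster 1 and 0.0059 ± 0.0102 in cluster 2 and was listed at 0 in cluster 4 (difference 0.23 ± 0.02, limma adjusted p = 5.53e-06), having passed the filter through cluster 1 alone. Flrt1, a ligand of latrophilins, was higher by 0.46 ± 0.05 (limma adjusted p = 3.28e-05) and Epb41l1 by 0.19 ± 0.05 (limma adjusted p = 0.0328). Ntng1 was lower by 0.76, at 0.757 ± 0.154 in cluster 1 and 1.98 ± 0.385 in cluster 2 (difference -0.76 ± 0.06, limma adjusted p = 7.68e-07). Epb41l3 (-0.47 ± 0.06) and Nectin3 (-0.21 ± 0.03) were also lower, with limma adjusted p-values of 1.54e-04 and 6.68e-04. In the high-count cells 0 of 50 partner genes were higher and 2 lower than in cluster 2, a share near the 2.31% of all tested genes. They were Ncam1 (-0.39 ± 0.08, limma adjusted p = 0.0101) and Ntrk3 (-0.13 ± 0.04, limma adjusted p = 0.0485).

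In the low-count cells 2 of 51 partner genes were higher and 2 lower than in clusters 1 and 2, a share near the 4.66% of all tested genes. The higher ones were Afdn, a cytoskeletal linker that holds nectins, and Ctnna1, the alpha-catenin of most non-neuronal cells, which passed the filter through the low-count cells alone. Ctnna1 averaged 2.02 ± 1.2 counts per 10000 there, 0.0335 ± 0.0141 in cluster 1 and 0.0451 ± 0.0141 in cluster 2 (difference 0.90 ± 0.18, limma adjusted p = 0.0269), and Afdn had a difference of 1.27 ± 0.21 (limma adjusted p = 0.0138). Ncam1, the neural cell adhesion molecule, was lower (-1.11 ± 0.23, limma adjusted p = 0.0298), as was Adgrl3 (-0.34 ± 0.08, limma adjusted p = 0.0430), which had 0 counts per 10000 in all 3 sets.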

How the data were processed

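Single cells of 11 plates were sequenced from 3′ ends. The authors deposited natural log values, ln(1 + counts per 10000) in each cell, and a cluster number per cell, which is a label without a unit. The submitters' processing notes list STAR 2.5.3a, SAMtools 1.4.1, featureCounts 1.5.3 and Seurat, with GRCm38 as the build. The settings used for clustering were not stated in any source at hand. Counts were recovered from the deposited values, and 100% of non-zero values came within 0.001 of a whole number.

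The main test was limma 3.58.1 in R 4.3.3 (trend and robust options, two-sided, Benjamini-Hochberg adjustment over all tested genes, threshold 0.05) on log2(1 + counts per 10000), averaged over the cells of a cluster in a set, with the set as a block. Clusters of one set come from the same pooled animals, so the sets pair them. Deviations from cluster means correlated at 0.555 to 0.866 between clusters of the same set and at -0.720 to 0.00171 between different sets. The deviations of a cluster balance out over its 3 sets, which by itself pulls the values between different sets down. Genes needed a mean of 0.05 counts per 10000. Comparisons with cluster 3 used cells thinned to 15000 counts for its high-count cells and 1500 for its low-count cells. The value of 30000 counts that divides cluster 3 was set in the gap of its totals. Each set is 1 pool of 2 mice, so its plates count as technical repeats. Floors of 3 counts and shares of cells cover counting error only. Alternatives were another pseudocount (0.1), median-of-ratios size factors, summed counts with voom weights, thinning, other filters, no block, leaving out each set and leaving out glia-rich cells. The model was tested on simulated data, made from cluster 1 cells divided at random within each set. These groups held more cells per set than cluster 4 or either part of cluster 3. The simulation therefore does not cover error at those cell numbers or at 1500 counts per cell.

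Named genes are, per comparison, in each direction the 6 called genes of smallest p, a fixed list of cadherin, Cadm, neurexin, neuroligin, teneurin, Lrrtm, contactin and Cntnap genes, 3 partner genes per direction and the 4 genes that varied most over sets. Other genes were named after their values were seen, and 1 gene of the families is not reported here. The genes and lists were chosen with earlier results of these data known. Gene positions came from GENCODE M21, which matched 88 of 89 symbols. The sort record was not used because wells could not be tied to cells. No doublet caller was run. Python 3.11.15, numpy 2.4.6, pandas 2.3.3 and matplotlib 3.10.9 were used.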

Additional observations from a re-analysis of the deposited data

Results flagged for a closer look

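Tenm4 in cluster 2 had 1 plate apart from the others of its set. In Set 2 the lowest of 4 plates had 1.82 counts per 10000, and the highest had 2.09. This was 1 of 10 groups of plates looked at, and chance marks about 1 group in 20 in this way.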

How the results depend on the processing

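With 1 set left out in turn, the calls in cluster 4 numbered 8 to 12 higher and 5 to 6 lower, those of cluster 1 over cluster 2 numbered 5 to 6 higher and 2 lower, those of the high-count cells 1 to 2 higher and 1 lower, and those of the low-count cells 0 to 1 higher and 0 lower. Without the set as a block, 7 genes were higher in cluster 4 and 1 in the high-count cells. With cells thinned to 15000 counts 6 were higher in cluster 4. A stricter filter, at a mean of 0.5 counts per 10000, left 2 higher in cluster 4, and 3 higher and 1 lower in cluster 1, because most of the genes called were no longer tested. Summed counts with voom weights gave 11 higher in cluster 1. With cells as deposited, 6 genes were higher in the high-count cells and 22 lower in the low-count cells, which are then compared with cells of far greater depth. Dividing cluster 3 at 10000 counts, an alternative chosen after seeing the data, left all 4 calls of each comparison in place.

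For the named genes with a call, 244 of the alternative values kept direction and call and 42 kept direction without the call; for those without one, 345 kept both, 19 passed and 25 changed sign. The cause of those 25 changes was not tested, and not all of the values lay close to 0. With a set left out, Cadm3 in the high-count cells reached -0.11, where the median absolute difference of all tested genes was 0.0495. For cluster 4 against clusters 1 and 2, leaving out a set gave -0.0016 to 0.027 for Cdh8, -0.036 to 0.046 for Nlgn3, -0.052 to 0.045 for Nrxn2 and -0.038 to 0.00089 for Tenm3, and thinning gave -0.0078 for Cdh8 and 0.015 for Nlgn2. For cluster 1 against cluster 2, leaving out a set gave -0.018 to 0.059 for Nlgn3, -0.0058 to 0.038 for Nrxn2 and -0.039 to 0.060 for Nrxn3. Thinning gave -0.00049 for Nlgn3, and a pseudocount of 0.1 gave -0.014 for Nrxn2 and -0.093 for Nrxn3. For the high-count cells the differences were -0.11 to 0.055 for Cadm2, -0.11 to 0.23 for Cadm3, -0.046 to 0.0054 for Cdh2, -0.18 to 0.013 for Cntn1, -0.013 to 0.016 for Nlgn1 and -0.035 to 0.15 for Nrxn2 with a set left out. A pseudocount of 0.1 gave -0.0044 for Cadm3 there, and cells as deposited gave 0.037 for Cdh2. In the low-count cells the range was -0.081 to 0.038 for Cdh2 and -0.10 to 0.046 for Nlgn2, and cells as deposited gave -0.050 for Cdh8.

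The clusters are groups of cells of this dataset and n is 3 pools. The low-count cells hold a median of 2683.5 counts. A gene at 0 there was not detected at this depth, which does not show that it is absent.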
